A study of Mus musculus with 5 samples.

Results

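The genes described here encode the nuclear-encoded parts of respiratory complexes II, III and IV and of ATP synthase, also called complex V, in mouse embryonic stem cells. They were chosen by name, as every gene of the deposited table whose name starts with Sdh, Uqcr or Atp5 or with Cox and a digit, together with Cyc1 and Cycs. The names matched 45 rows, 1 of which was set aside by the same rule, so 44 of 12930 genes are described. By known function 33 of the 44 encode subunits and 9 encode assembly factors, which help to build a complex without staying in it. The other genes are Cycs, which encodes the mobile carrier cytochrome c, and Cox7a2l, which encodes a factor that joins complexes III and IV into supercomplexes. Complex II is represented by 4 genes, complex III by 8, complex IV by 18 and complex V by 13. Only genes with a row in the deposited table are covered, so a complex can have subunits that are not described. All 44 had a value in each of the 4 siRNA libraries. The GENCODE M21 annotation of build GRCm38 holds all 44, on 19 chromosomes. The exons of 3 overlap another annotated entry on the same strand, which for Atp5o is a second entry under its own name. The exons of 14 overlap a gene on the other strand. Strand use in counting is not given, so reads of such overlapping entries cannot be told apart. Near-identical pseudogene copies, of at least 95% identity over 150 bases, exist for 12. These are Uqcrb, Uqcr11, Cycs, Cox6c, Cox7b, Cox7c, Cox7a2l, Atp5o, Atp5pb, Atp5h, Atp5k and Atp5l.

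The respiratory chain passes electrons from NADH and succinate to oxygen, and ATP synthase uses the proton gradient so formed to make ATP. Complex II is encoded by nuclear genes alone, whereas complexes III, IV and V combine nuclear-encoded subunits with a few made inside the mitochondrion from mitochondrial DNA. Tfam packages mitochondrial DNA and starts its transcription, and Dhx30 is an RNA helicase of the granules in which mitochondrial RNA is processed. Both proteins therefore act on the mitochondrial partners of the subunits described here.

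RNA was measured in 5 libraries of the OG2 mouse embryonic stem cell line, whose strain is labelled as a cross of (CBA/CaJxC57BL/6J) with 129Sv/Jae. There were 2 libraries of cells given an siRNA against Dhx30 (siDhx30), 2 of cells given one against Tfam (siTfam), and 1 labelled NC, the negative control. All cells grew on gelatin for 24 h in N2B27 medium with LIF, PD0325901 and CHIR99021, which hold the naive state. They were then transfected with DharmaFECT 1 at 50 nM siRNA and kept for 36 h in a medium with bFGF, Activin A and knockout serum replacement. Thus all 5 libraries, NC included, come from cells of 1 line in a medium that takes them out of the naive state. The sequence of the NC reagent is not given in the sources used here, nor whether replicates were separate cultures, so the p-values reflect variation among these libraries alone, and that could be technical.

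Each value is a log2 ratio of 1 siRNA library, read here as over the NC library, so NC lies at 0 and a positive value means more RNA than in NC, relative to the whole library. The headings give neither denominator nor direction. Of the genes, 842 lacked a value in some library, and the 1574 values they do have were all negative as deposited. At the positive extreme, above 3 as deposited, 102 of 102 genes were complete, and at the negative extreme, below -3, 20 of 124 were. The signs were turned on that basis, and every direction rests on it. The targeted transcripts check the labels only weakly. Dhx30 had ratios of -0.40 and -0.20 under siDhx30, on average 81.2% of NC with a 95% interval of 55.5% to 118.7%. Tfam had ratios of -0.28 and -0.02 under siTfam, on average 90.2% of NC with an interval of 59.4% to 137%. Both intervals include 100%, so a knockdown of RNA was not established. Levels and depth are unknown, so cell type markers cannot be checked by level. Of 13 stem cell markers 4 were complete (Esrrb, Tfcp2l1, Dppa4 and Sall4), with medians of 0.16 and 0.02 in siDhx30 and 0.15 and 0.13 in siTfam. Of 7 primitive endoderm markers 3 were complete (Dab2, Col4a1 and Col4a2), with medians of -0.79 and -0.02 in siDhx30 and -1.05 and -1.30 in siTfam. The feeder cell list had 4 of 6 members complete, with medians from -0.07 to 0.09, the primed epiblast list 3 of 5, with medians from 0.16 to 0.19, and the muscle isoforms of the chain 0 of 3. Fewer cells of a type and less RNA per cell cannot be told apart in such bulk ratios, and the part of these cells in the results below was not tested.

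In the siDhx30 libraries the genes were split about evenly around NC, and in the siTfam libraries most lay above it, by small amounts. Under siDhx30 25 of 44 had a positive mean ratio, with a median of 0.07, whereas 48.1% of all 12088 complete genes were positive, with a median of -0.01. Under siTfam 33 of 44 were positive, with a median of 0.20, against 47.3% positive and a median of -0.02 over all genes. By library the median was 0.07 in siDhx30 replicate 1, 0.0020 in siDhx30 replicate 2, 0.19 in siTfam replicate 1 and 0.15 in siTfam replicate 2. The number of positive genes was 25 and 22 in siDhx30, and 32 and 36 in siTfam. Without replicate 1 the siDhx30 median was therefore 0.0020.

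No single gene passed the test. With limma, fitted over all 12088 genes and called at a Benjamini-Hochberg adjusted p under 0.05, the share of genes called was 0% for siDhx30 against NC, 0% for siTfam against NC and 0% for siDhx30 against siTfam. Adjusted p over the 44 was 0.998 for each gene in siDhx30 against NC, ran from 0.847 to 0.997 in siTfam against NC, and was 0.999 in siDhx30 against siTfam. At an unadjusted p under 0.05, the background over all genes was 2.56% higher and 2.47% lower in siDhx30 against NC, and 3.04% higher and 3.08% lower in siTfam against NC, and 0 of the 44 reached it in either. Between the siRNAs the background was 1.29% higher and 1.50% lower in siDhx30, and of the 44 Cox14 alone reached it, on the lower side. Each mean rests on 2 libraries against 1, so the median standard error of a ratio to NC was 0.24, wider than the median ratio of any complex except complex III in siTfam.

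Genes with both replicates on 1 side of NC were counted next, as a description. Both siDhx30 libraries lay above NC for 16 of the 44 genes and below it for 13, where the background over all genes is 32.1% above and 34.9% below. Both siTfam libraries lay above NC for 28 and below it for 4, where the background is 32.0% above and 34.4% below. The share above NC is 36.4% in siDhx30, near its background, and 63.6% in siTfam, over its own. Every one of these ratios shares the NC library. All 4 libraries lay above NC for 15 genes, which is 34.1% of the 44 against 20.1% of all genes. They are Sdha, Uqcrc2, Uqcrb, Cox4i1, Cox7a2, Cox7b, Cox7c, Cox10, Cox17, Atp5b, Atp5e, Atp5h, Atp5j, Atp5k and Atp5mpl. All 4 lay below NC for Cox15, Cox16, Cox19 and Atp5j2, which is 9.09% of the 44 against 22.4% of all genes.

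**Figure D1:**
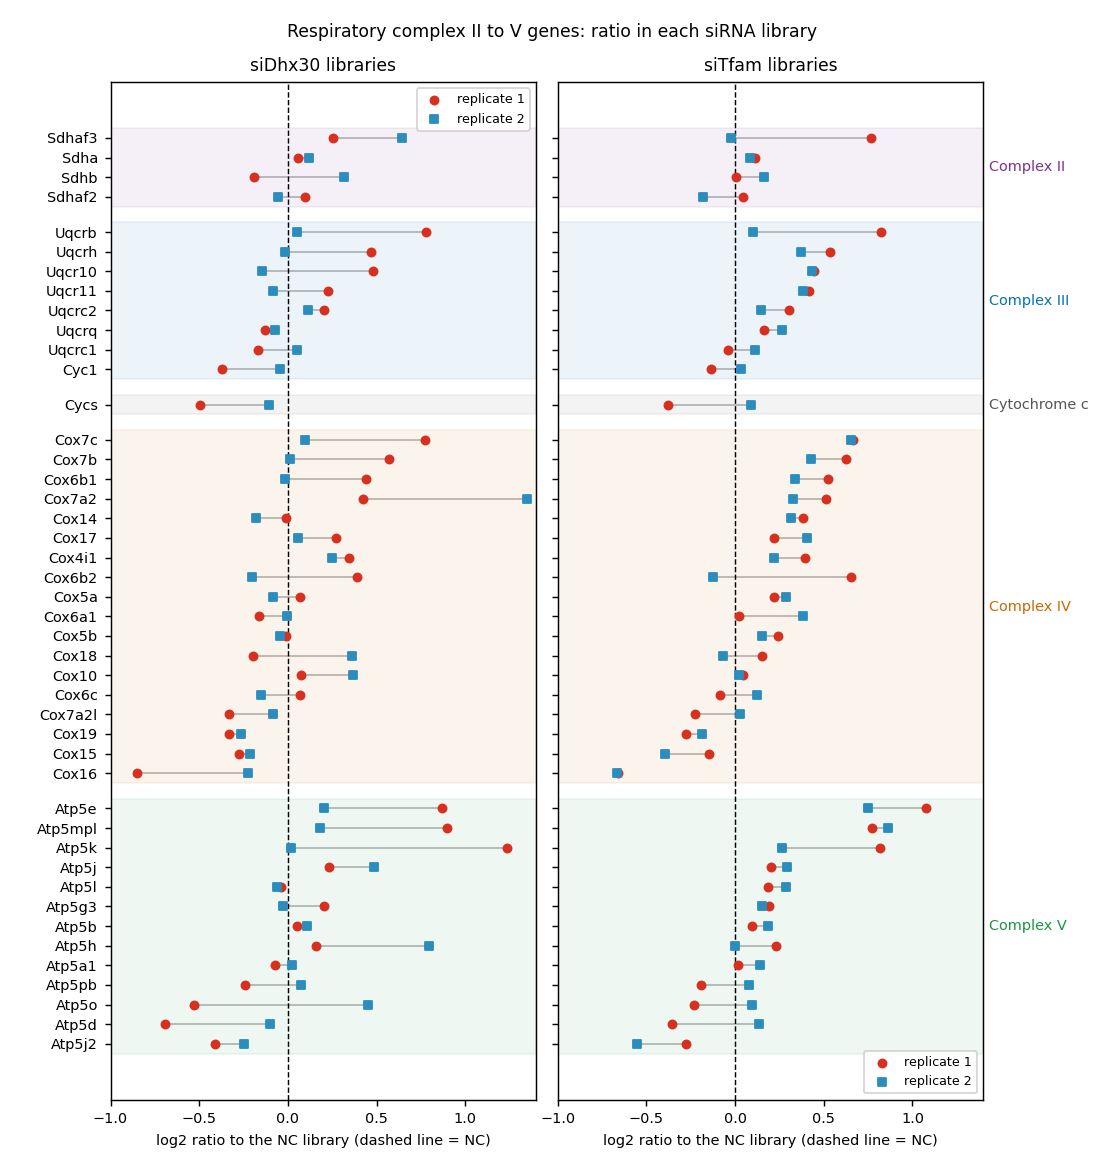
Log2 ratio to the NC library (x axis, dashed line at NC) for each of the 44 genes, ordered by complex and by their siTfam mean, with 1 panel for siDhx30 and 1 for siTfam. Circles are replicate 1, squares replicate 2, and the grey line joins them; of 44 genes, 16 in siDhx30 and 28 in siTfam have both points right of the dashed line.

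The siTfam ratios above NC lay mainly among the subunits. The 33 subunits had a median of 0.09 in siDhx30, with 20 positive, and 0.22 in siTfam, with 28 positive. By library the subunit medians were 0.16 and 0.02 in siDhx30, and 0.22 and 0.18 in siTfam. The 9 assembly factors had a median of 0.02 in siDhx30 and 0.03 in siTfam, with 5 positive in each. Their library medians were -0.01 and -0.06 in siDhx30, and 0.05 and -0.07 in siTfam. With trends of ratio with transcript length and GC content removed, as described below, 24 subunits were positive in siTfam, with a median of 0.11. The assembly factors then had a siTfam median of -0.02, with 4 positive. The difference between both classes was not tested.

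Complex II oxidises succinate in the citric acid cycle and hands the electrons to ubiquinone, and its subunits stayed near NC in most libraries. Sdha (chr13:74322254-74350280, minus strand), the flavoprotein that oxidises succinate, had ratios of 0.06 and 0.12 under siDhx30 and of 0.11 and 0.09 under siTfam. The 4 values lie within 0.06 of one another, and the siTfam mean was 0.10 (SE 0.18, n = 2). Sdhb, the iron-sulfur subunit, measured -0.19 and 0.32 under siDhx30, and 0.0071 and 0.16 under siTfam. Its siDhx30 libraries fell on both sides of NC and enclosed both siTfam values.

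The assembly factors of complex II differed from each other in their spread. Sdhaf2, which attaches the flavin to Sdha, stood at 0.10 and -0.06 under siDhx30 and at 0.04 and -0.18 under siTfam. Sdhaf3, which helps to insert the iron-sulfur subunit, had ratios of 0.25 and 0.64 under siDhx30 and of 0.76 and -0.03 under siTfam. Replicates of 1 siRNA were therefore further apart for Sdhaf3 than the siRNA means. Over the complex II genes the median was 0.07 in siDhx30, where 4 of 4 were positive, and 0.09 in siTfam, where 3 of 4 were. It was 0.22 in siDhx30 without replicate 1, and 0.03 in siTfam without replicate 1.

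Complex III passes electrons from ubiquinol to cytochrome c, and in siTfam 7 of its 8 measured genes had a positive mean ratio. The median of the 8 genes was 0.11 in siDhx30, with 5 positive, and 0.31 in siTfam. The siDhx30 median was -0.03 without replicate 1, and the siTfam median was 0.21 without replicate 1. Both siDhx30 libraries were above NC for 2 of the 8 and both siTfam libraries for 6. With the trends of ratio with transcript length and GC content removed, as described below, the medians were 0.11 in siDhx30 and 0.15 in siTfam.

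Among the large subunits, Uqcrc2, a core protein, measured 0.21 and 0.12 under siDhx30, and 0.30 and 0.15 under siTfam. The other core protein, Uqcrc1, stood at -0.17 and 0.05 under siDhx30 and at -0.04 and 0.11 under siTfam. Cyc1, the heme-bearing cytochrome c1, had ratios of -0.37 and -0.04 under siDhx30 and of -0.14 and 0.04 under siTfam. Uqcrc2 was thus above NC in all 4 libraries, and Uqcrc1 and Cyc1 were on both sides of NC in siTfam.

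Of the small subunits, Uqcrb, Uqcrh, Uqcr10 and Uqcr11 had the highest siTfam means of the complex. Uqcr11 (chr10:80402997-80406830, minus strand) measured 0.23 and -0.09 under siDhx30, and 0.42 and 0.38 under siTfam. Both siDhx30 libraries thus lay below both siTfam libraries, as they did for 14.3% of all genes. Uqcr11 has 2 near-identical pseudogene copies. Its siTfam mean was 0.40 (SE 0.22, n = 2, 95% interval -0.21 to 1.02). Uqcr10 stood at 0.48 and -0.14 under siDhx30 and at 0.44 and 0.43 under siTfam. For Uqcr10 the siDhx30 replicates were on opposite sides of NC and the siTfam replicates nearly coincided. Uqcrh, the hinge protein next to cytochrome c1, had ratios of 0.47 and -0.01 under siDhx30 and of 0.54 and 0.37 under siTfam. Uqcrb, a quinone-binding subunit, measured 0.78 and 0.05 under siDhx30, and 0.82 and 0.10 under siTfam. The Uqcrb values differed more by replicate number than by siRNA, both replicates 1 being high and both replicates 2 low. Uqcrb also has 3 near-identical pseudogene copies, among which counting could split reads. Uqcrq stood at -0.13 and -0.07 under siDhx30 and at 0.16 and 0.27 under siTfam, below NC in siDhx30 and above it in siTfam. The coding sequence of Uqcr11, from GENCODE M21 on GRCm38, is shown because it is among the shortest of the complexes and its siRNA groups did not overlap, with the start and stop codons in capitals.
Uqcr11: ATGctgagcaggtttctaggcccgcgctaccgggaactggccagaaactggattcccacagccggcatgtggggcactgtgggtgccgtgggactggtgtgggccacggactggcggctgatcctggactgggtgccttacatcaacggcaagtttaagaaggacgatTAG

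Cytochrome c, the protein that carries electrons from complex III to complex IV, lay mostly below NC. Cycs had ratios of -0.50 and -0.11 under siDhx30 and of -0.38 and 0.09 under siTfam. It was below NC in 3 of 4 libraries, with a siTfam mean of -0.14 (SE 0.32, n = 2). Cycs has 3 near-identical pseudogene copies, so its counts are uncertain.

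Complex IV, cytochrome c oxidase, reduces oxygen to water. Of its 10 measured subunits 6 had a positive mean ratio in siDhx30, with a median of 0.15. In siTfam 10 of 10 had one, with a median of 0.29. By library the subunit medians were 0.37 and -0.01 in siDhx30, and 0.45 and 0.31 in siTfam. With the length and GC trends removed they were 0.33 and -0.03 in siDhx30, and 0.34 and 0.11 in siTfam. The shift in siDhx30 was therefore seen in replicate 1 only. Over all 18 genes of complex IV the median was 0.04 in siDhx30, with 9 positive, and 0.23 in siTfam, with 14 positive. The siDhx30 value was -0.03 without replicate 1, and with trends removed the siTfam value was 0.10.

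Cox7c (chr13:86044816-86046904, minus strand) had the highest siTfam mean of the complex IV genes. It measured 0.77 and 0.10 under siDhx30, and 0.66 and 0.66 under siTfam. Its siTfam mean was 0.66 (SE 0.34, n = 2, 95% interval -0.30 to 1.62), and 94.5% of all genes had a lower one. Cox7c has 2 near-identical pseudogene copies. Cox7b, on the X chromosome, stood at 0.57 and 0.01 under siDhx30 and at 0.62 and 0.43 under siTfam. In both genes siDhx30 replicate 2 stood near NC while the other 3 libraries stood above it. Cox7a2, the isoform of most tissues outside muscle, had ratios of 0.42 and 1.35 under siDhx30 and of 0.51 and 0.33 under siTfam. The value of 1.35, in siDhx30 replicate 2, is the highest of the 44 genes in any library and was not matched by the other replicate. The coding sequence of Cox7c follows, from the same annotation and with the same capitals.
Cox7c: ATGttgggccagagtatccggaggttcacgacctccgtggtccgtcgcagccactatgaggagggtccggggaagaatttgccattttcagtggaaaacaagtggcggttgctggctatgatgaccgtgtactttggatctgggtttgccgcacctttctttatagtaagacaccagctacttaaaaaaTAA

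Cox4i1, the widely expressed isoform of the subunit that binds ATP, had similar values in all 4 libraries. It measured 0.34 and 0.25 under siDhx30, and 0.39 and 0.22 under siTfam, with means of 0.30 under siDhx30 and 0.31 under siTfam (SE 0.20 each, n = 2). Cox6b1, on the side of the complex that meets cytochrome c, stood at 0.44 and -0.01 under siDhx30 and at 0.52 and 0.34 under siTfam. Its testis isoform Cox6b2 had ratios of 0.39 and -0.20 under siDhx30 and of 0.65 and -0.12 under siTfam. Both replicates 1 of Cox6b2 were high and both replicates 2 were below NC.

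In a further set of subunits the libraries of both siRNAs did not overlap. Cox5a measured 0.07 and -0.09 under siDhx30, and 0.22 and 0.29 under siTfam. Cox5b, which binds zinc, stood at -0.01 and -0.05 under siDhx30 and at 0.24 and 0.15 under siTfam. Cox6a1, the isoform of most tissues outside muscle, had ratios of -0.16 and -0.0074 under siDhx30 and of 0.02 and 0.38 under siTfam. In these 3 genes both siDhx30 libraries lay below both siTfam libraries. That order held for 15.9% of the 44 and for 14.3% of all genes. Cox6c measured 0.07 and -0.15 under siDhx30, and -0.09 and 0.13 under siTfam, with no separation. Cox7a2l, the supercomplex factor, stood at -0.33 and -0.08 under siDhx30 and at -0.22 and 0.03 under siTfam. It followed Cycs and Cyc1 in lying mostly below NC, and in each of these genes both replicates 1 were lower than both replicates 2.

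The 7 complex IV assembly factors went in several directions, with medians of -0.10 in siDhx30 and 0.03 in siTfam. Cox10 and Cox15 make heme A in consecutive steps. Cox10 had ratios of 0.07 and 0.36 under siDhx30 and of 0.05 and 0.02 under siTfam, and was the only gene of the 44 with both siDhx30 libraries above both siTfam libraries. Cox15 measured -0.28 and -0.22 under siDhx30, and -0.15 and -0.39 under siTfam, below NC in all 4. The enzymes of the same short pathway thus lay on opposite sides of NC in every library.

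Cox17 and Cox19 act in copper delivery to the complex. Cox17 stood at 0.27 and 0.06 under siDhx30 and at 0.22 and 0.41 under siTfam. Cox19 had ratios of -0.33 and -0.26 under siDhx30 and of -0.28 and -0.19 under siTfam. Again 1 gene of the pair was above NC in all 4 libraries and the other below it. The exons of Cox17 overlap those of another gene on the same strand, so reads of both cannot be told apart.

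Cox14, Cox16 and Cox18 assist the mitochondrially made subunits, Cox14 for COX1 and the others for COX2. Cox14 measured -0.01 and -0.18 under siDhx30, and 0.38 and 0.32 under siTfam. Cox16 stood at -0.85 and -0.23 under siDhx30 and at -0.66 and -0.66 under siTfam, and had the lowest mean of the 44 in both. Its siTfam mean was -0.66 (SE 0.32, n = 2, 95% interval -1.57 to 0.25), and its exons overlap an annotated same-strand gene. Cox18, which inserts COX2 into the membrane, had ratios of -0.20 and 0.36 under siDhx30 and of 0.15 and -0.07 under siTfam. Cox14 separated the siRNAs, Cox16 was below NC throughout, and Cox18 did neither.

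Complex V makes ATP in its F1 head, which a peripheral stalk holds against the proton-driven ring in the membrane. Its 13 measured genes had a median of 0.08 in siDhx30, with 7 positive, and 0.14 in siTfam, with 9 positive. The siDhx30 median was 0.05 without replicate 2, and with length and GC trends removed the medians were 0.04 in siDhx30 and -0.01 in siTfam. Within the complex the 3 highest siTfam means belonged to genes of very short proteins, in the F1 head and in the membrane part.

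In the head, Atp5a1 and Atp5b encode the alpha and beta subunits that form the catalytic ring. Atp5a1 measured -0.08 and 0.02 under siDhx30, and 0.02 and 0.14 under siTfam. Atp5b stood at 0.05 and 0.11 under siDhx30 and at 0.09 and 0.18 under siTfam. Both stayed close to NC in every library. Atp5d, the delta subunit of the central stalk, had ratios of -0.69 and -0.10 under siDhx30 and of -0.35 and 0.13 under siTfam. Atp5e, the epsilon subunit, measured 0.87 and 0.21 under siDhx30, and 1.08 and 0.75 under siTfam. Its siTfam mean of 0.91 (SE 0.37, n = 2, 95% interval -0.12 to 1.95) was the highest of the 44, and 96.9% of all genes had a lower one. The delta and epsilon subunits, neighbours in the central stalk, therefore lay on opposite sides of NC in 3 of 4 libraries. The coding sequence of Atp5e (chr2:174461072-174464105, minus strand), 159 bases long, is shown beside that of Atp5mpl, the next highest in siTfam, with start and stop codons in capitals.
Atp5e: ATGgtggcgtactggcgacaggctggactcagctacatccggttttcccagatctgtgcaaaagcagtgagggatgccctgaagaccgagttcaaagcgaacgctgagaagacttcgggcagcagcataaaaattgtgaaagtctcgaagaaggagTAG
Atp5mpl: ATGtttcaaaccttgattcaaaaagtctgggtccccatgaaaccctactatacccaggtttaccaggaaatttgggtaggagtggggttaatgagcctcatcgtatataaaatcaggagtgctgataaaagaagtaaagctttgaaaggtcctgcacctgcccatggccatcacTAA

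In the peripheral stalk siDhx30 replicate 2 was high. Atp5h, the d subunit, stood at 0.16 and 0.79 under siDhx30 and at 0.23 and 0.0019 under siTfam. Atp5j, coupling factor 6, had ratios of 0.23 and 0.49 under siDhx30 and of 0.20 and 0.29 under siTfam. Atp5o, the oligomycin sensitivity subunit, measured -0.53 and 0.45 under siDhx30, and -0.23 and 0.10 under siTfam. The 4 stalk genes had a median of -0.04 in siDhx30 replicate 1 and 0.47 in siDhx30 replicate 2. The fourth, Atp5pb, stood at -0.24 and 0.07 under siDhx30 and at -0.19 and 0.08 under siTfam. Atp5h has 3 near-identical pseudogene copies, and Atp5o and Atp5pb 1 each.

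In the membrane part, Atp5mpl (chr12:111961375-111966977, minus strand), a small proteolipid, had ratios of 0.89 and 0.18 under siDhx30 and of 0.77 and 0.86 under siTfam. Its siTfam mean was 0.82 (SE 0.36, n = 2, 95% interval -0.19 to 1.82). Atp5k, the e subunit, measured 1.23 and 0.02 under siDhx30, and 0.82 and 0.27 under siTfam, high in replicates 1. Atp5g3, which encodes the ring subunit c, stood at 0.20 and -0.03 under siDhx30 and at 0.19 and 0.15 under siTfam. Atp5j2, the f subunit, had ratios of -0.41 and -0.25 under siDhx30 and of -0.28 and -0.55 under siTfam, the lowest mean of complex V in siTfam. Atp5l, the g subunit, measured -0.04 and -0.06 under siDhx30, and 0.19 and 0.29 under siTfam. The siTfam means of the membrane subunits, which stand side by side in the enzyme, thus ranged from -0.41 for Atp5j2 to 0.82 for Atp5mpl. Atp5l has 8 near-identical pseudogene copies, the most of the 44.

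Set directly against siTfam, where the NC library cancels, siDhx30 was lower for 32 of the 44 genes, with a median difference of -0.09, whereas 50.2% of all genes were lower. All 8 complex III genes were lower in siDhx30, with a median of -0.19, and 9 of 10 complex IV subunits, with a median of -0.22. All 4 measured genes of the F1 head were lower too, with a median of -0.20. Of the 4 measured stalk genes, by contrast, 3 were higher, with a median of 0.07. Without siDhx30 replicate 2 the complex IV subunits had a median of 0.02, with 7 of 10 higher in siDhx30, and the stalk genes one of -0.10, with 1 of 4 higher. Without siTfam replicate 1 the stalk median was -0.04. The F1 median ran from -0.19 to -0.04 when 1 library was left out, and leaving libraries out was tried on these groups after the values were seen. Over the complexes the medians were 0.03 for complex II, -0.13 for complex IV with 13 of 18 lower, and -0.06 for complex V with 8 of 13 lower. No gene of these passed (limma adjusted p = 0.999 for each). Both siDhx30 libraries lay wholly below both siTfam libraries for 7 genes and wholly above for 1, which is 15.9% and 2.27% of the 44. Over all genes these shares were 14.3% below and 14.7% above, so the share below is near its background.

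The 7 genes were Uqcrq, Uqcr11, Cox5a, Cox5b, Cox6a1, Cox14 and Atp5l. Cox14 had the largest difference in that direction, at -0.45 (SE 0.16, n = 2 each, 95% interval -0.88 to -0.01). Uqcr11 differed by -0.33 (95% interval -0.83 to 0.17) and Uqcrq by -0.32 (-0.73 to 0.10). Atp5e had a larger difference than Uqcr11 and Uqcrq, -0.38, with overlapping libraries and an interval of -1.22 to 0.47. The highest difference was 0.47 for Cox7a2 (-0.56 to 1.49), which rests on siDhx30 replicate 2.

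Single libraries moved these medians. Without siDhx30 replicate 2 the median difference was -0.04 over the 44 genes, -0.10 for complex III, -0.02 for complex IV and -0.08 for complex II. Without siDhx30 replicate 1 it was -0.06 over the 44, -0.35 for complex III, -0.03 for complex V and 0.13 for complex II. Without siTfam replicate 1 it was -0.14 over the 44, -0.14 for complex V and 0.10 for complex II, and without siTfam replicate 2 it was -0.02 for complex II. The sign stayed negative for complexes III, IV and V and for all 44 when any 1 library was left out, and changed for complex II. With length and GC trends removed it was -0.02 over the 44, -0.07 for complex III, -0.02 for complex IV and 0.04 for complex V.

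**Figure D2:**
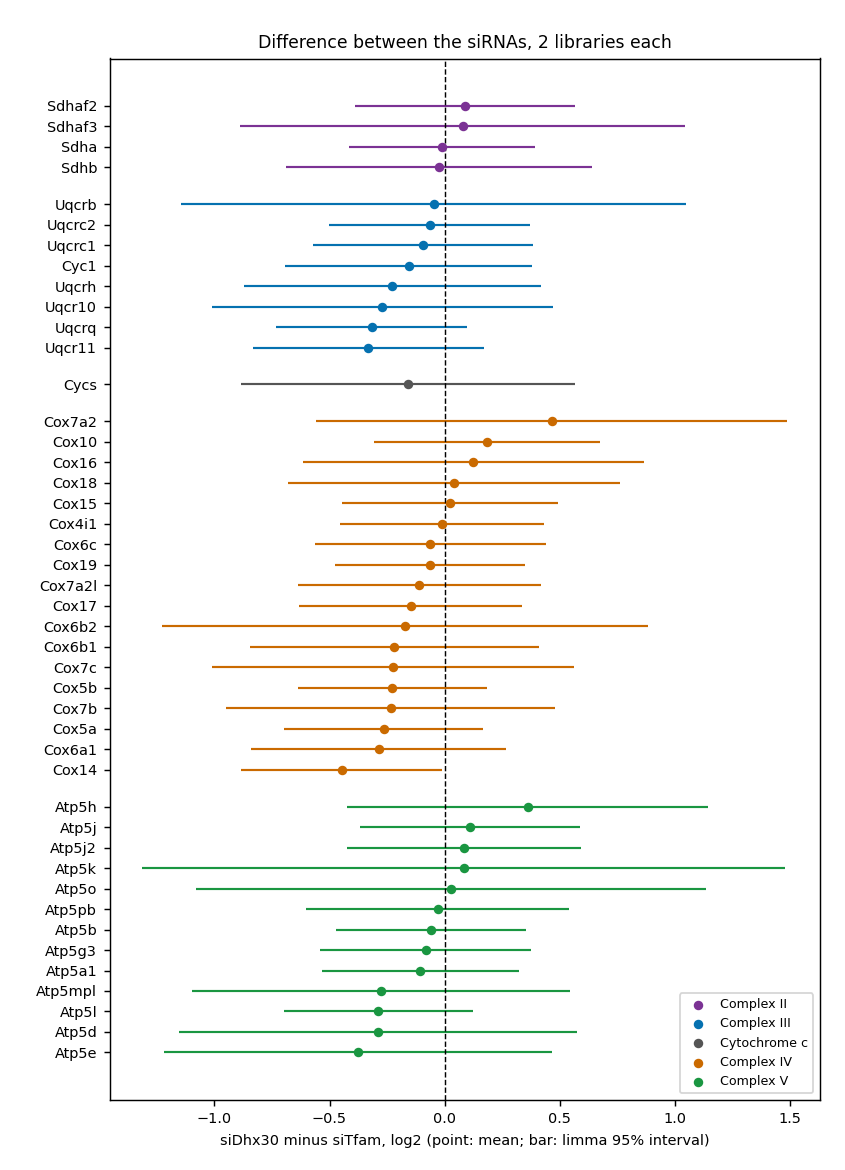
Difference in log2 ratio, siDhx30 minus siTfam (x axis), for each of the 44 genes, ordered within complexes, where a point is the difference of means over 2 libraries each and a bar its 95% interval from limma. Of the 44 points 32 lie left of the dashed line at no difference, and every bar but that of Cox14 crosses it.

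The subunit transcripts are short, and other short transcripts had medians above NC in the siTfam libraries. In the shortest class of other protein-coding genes, with 27 genes, the median was also above NC in siDhx30 replicate 1, at 0.18. The median annotated transcript of the 44 genes was 910 bases long, from 371 for Atp5k to 4798 for Cox15, against 3122 for all protein-coding genes. Their median coding length was 336 bases, against 1506, and their median GC content 50.5%, against 50.6%. Across the 44 genes the Spearman correlation of ratio with transcript length was -0.55 in siDhx30 replicate 1 and -0.0018 in siDhx30 replicate 2, and it was -0.61 and -0.59 in the siTfam libraries. Across 9329 protein-coding genes it was 0.17 and 0.02 in siDhx30, and 0.03 and -0.20 in siTfam. The points share the libraries and the annotation, and genes are not independent replicates. Shorter transcripts among the 44 thus had higher ratios in 3 libraries, and siDhx30 replicate 2 showed no such order.

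The 22 genes with transcripts up to 910 bases had medians of 0.29 and -0.01 in siDhx30, and 0.41 and 0.29 in siTfam. The 322 other protein-coding genes of that length had medians of -0.02 and -0.01 in siDhx30, and 0.12 and 0.17 in siTfam. For the 22 genes with longer transcripts the medians were -0.18 and 0.02 in siDhx30, and 0.01 and 0.08 in siTfam. In siTfam 21 of the 22 short genes had a positive mean, against 12 of the 22 long ones. The siTfam median was 0.33 for the short genes of the set and 0.15 for other short genes, and the siDhx30 minus siTfam median was -0.22 for the short genes and -0.15 for the other short genes. This split at the median length was chosen after the values were seen, and the difference from other short genes was not tested.

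**Figure D3:**
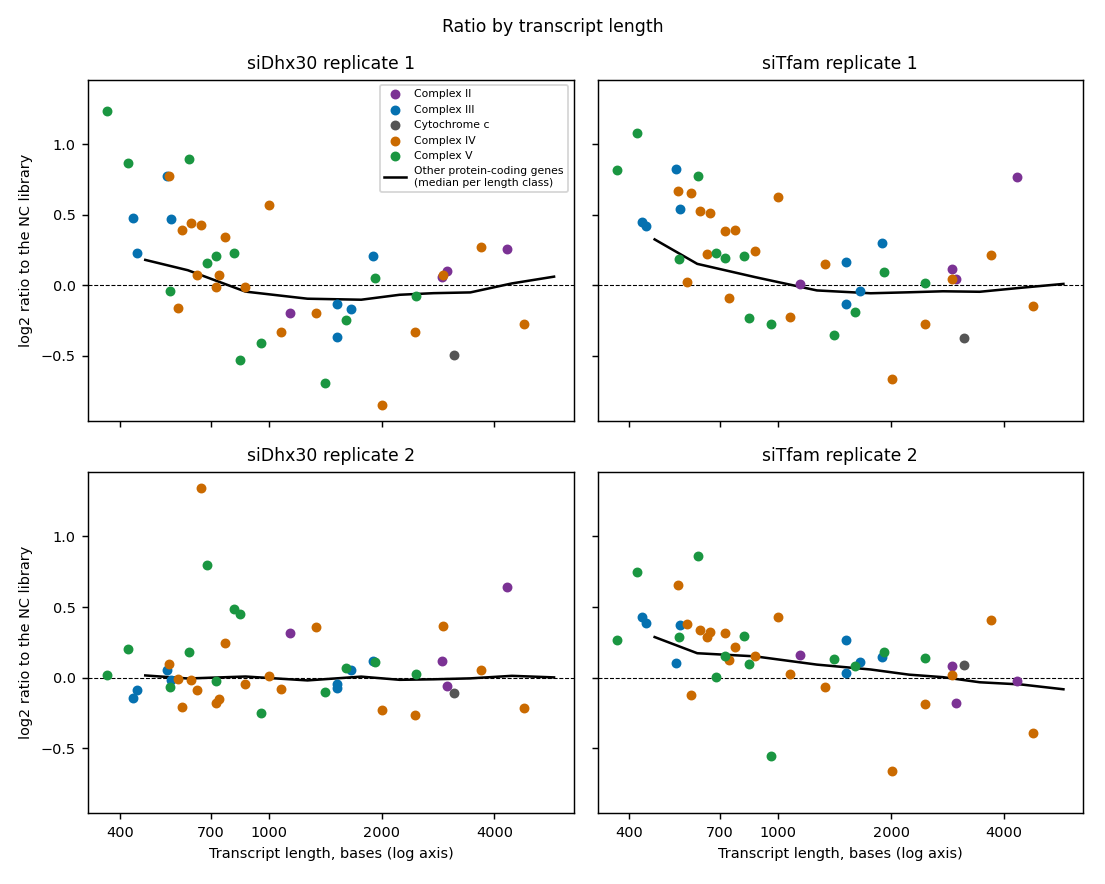
Log2 ratio to NC against transcript length in bases (log axis) for the 44 genes, coloured by complex, in each of the 4 siRNA libraries. The black line is the median of other protein-coding genes in classes of length. In the shortest class, of 27 genes, the line lies at 0.32 and 0.29 in siTfam and at 0.18 and 0.02 in siDhx30.

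A fitted trend on length and GC content was then removed from each library. The median of the gene means over the 44 was then 0.08 in siDhx30, 0.07 before, and 0.08 in siTfam, 0.20 before. Within single libraries the median of the 44 was 0.02 and -0.01 in siDhx30, where it had been 0.07 and 0.0020. It was 0.08 and 0.05 in siTfam, where it had been 0.19 and 0.15. By complex the trend-removed medians of gene means were 0.09 in siDhx30 and 0.05 in siTfam for complex II. For complex IV subunits they were 0.14 in siDhx30 and 0.17 in siTfam. For complex IV as a whole they were 0.06 in siDhx30 and 0.10 in siTfam. Within single libraries, however, the complex IV median was below NC in both siDhx30 libraries, at -0.03 and -0.05. It was 0.13 and 0.05 in the siTfam libraries. In siTfam 28 of 44 were then positive, against 33 before. Of the 9329 protein-coding genes treated the same way, 4216 were positive in siTfam, with a median of -0.03. In siDhx30 4359 of them were positive, with a median of -0.02. The part of length in the shift was not tested beyond this fit.

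**Figure D4:**
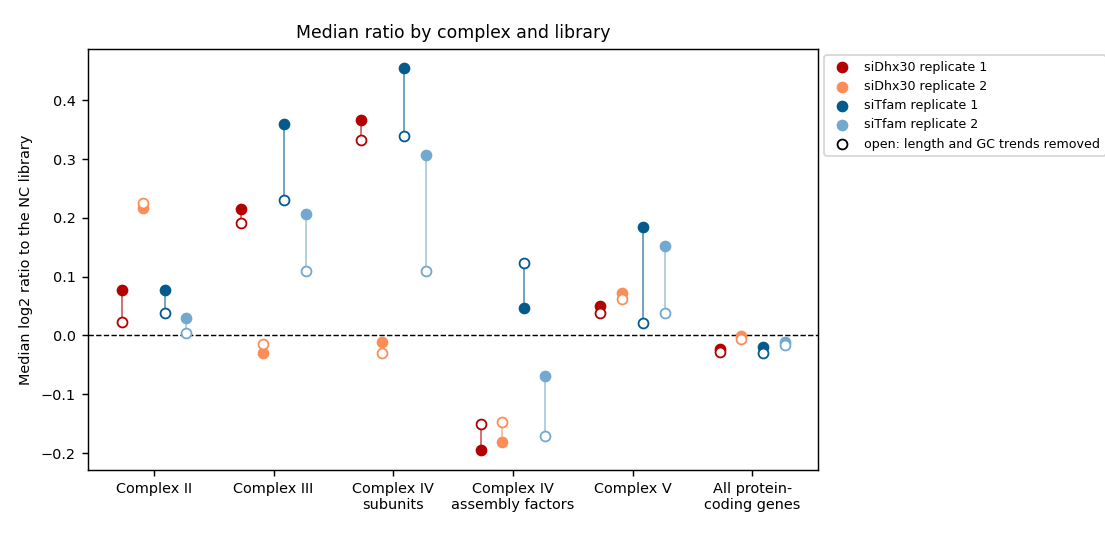
Median log2 ratio to NC (y axis, dashed line at NC) by complex, with complex IV split into subunits and assembly factors, for each library. Filled points are the ratios as turned and open points those with length and GC trends removed; for complex V in siTfam the filled points at 0.19 and 0.15 move to open points at 0.02 and 0.04.

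Promoters of respiratory genes are known for sites of NRF1, of the ETS factor GABPA and of YY1. A window from 250 bases before to 50 after the start was searched on both strands in RefSeq's table for GRCm38.p6, which holds 34 of the 44 genes and 27025 genes in all. The NRF1 motif GCGCANGCG, which may overlap itself on the other strand, was in 11 of 34 windows (32.4%) against 6.47% of all. The ETS motif CCGGAAG was in 15 (44.1%) against 9.12%. The YY1 motif AAGATGGC was in 3 (8.82%) against 2.88%. At least 1 of the motifs was in 22 of 34 (64.7%) against 16.5%. These shares of all are over every gene with a promoter window, measured here or not, unlike the backgrounds above. A match is a run of letters and not a measured site.

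Medians with and without the NRF1 motif were close, and those for the ETS and YY1 motifs were further apart. In siDhx30 against NC the median was 0.07 with the NRF1 motif and 0.06 without it, and in siTfam 0.17 with it and 0.20 without. For the ETS motif the medians were 0.07 with and -0.01 without in siDhx30, and 0.24 with and 0.14 without in siTfam. For the YY1 motif, with 3 genes, they were -0.09 with and 0.07 without in siDhx30, and -0.06 with and 0.20 without in siTfam. For 5 genes both siDhx30 libraries lay below NC and both siTfam libraries above it, and a pair of them, Cox6a1 and Atp5l, is shown. Of the others, Cox5b had no match to any motif, Cox14 had 1 ETS match, and Uqcrq had no promoter window. A link between the motifs and this split was not tested. The 3 promoters shown are those of the gene with the highest siTfam mean and of that pair. Each is given as the 250 bases before the start on its own strand, 5′ to 3′, with motif letters in capitals. They are Atp5e at chr2:174464102-174464351, with an ETS match, Cox6a1 at chr5:115348959-115349208, with NRF1 matches that partly overlap and an ETS match, and Atp5l at chr9:44920743-44920992, with a match to each, all on the minus strand.
Atp5e: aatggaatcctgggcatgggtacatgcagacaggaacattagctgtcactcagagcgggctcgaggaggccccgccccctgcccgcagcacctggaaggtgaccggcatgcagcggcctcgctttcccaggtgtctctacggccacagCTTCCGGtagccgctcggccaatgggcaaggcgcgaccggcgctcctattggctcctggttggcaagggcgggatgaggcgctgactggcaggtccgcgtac
Cox6a1: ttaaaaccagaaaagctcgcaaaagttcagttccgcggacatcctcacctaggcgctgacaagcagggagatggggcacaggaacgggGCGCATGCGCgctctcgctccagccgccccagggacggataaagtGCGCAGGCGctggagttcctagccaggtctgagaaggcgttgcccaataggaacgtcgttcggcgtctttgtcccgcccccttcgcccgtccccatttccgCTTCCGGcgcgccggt
Atp5l: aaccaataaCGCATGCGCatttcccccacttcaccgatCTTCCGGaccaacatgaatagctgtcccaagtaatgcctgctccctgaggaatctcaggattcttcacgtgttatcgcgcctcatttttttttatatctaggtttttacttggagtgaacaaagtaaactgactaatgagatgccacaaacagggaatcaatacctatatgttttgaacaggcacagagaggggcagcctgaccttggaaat

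Other genes of the pathway were taken from lists of known members. Of 24 measured complex I subunits, the entry point for electrons from NADH, 11 were positive in siDhx30, with a median of -0.01, and 17 in siTfam, with a median of 0.23. Set directly, 20 of 24 were lower in siDhx30 than in siTfam, with a median of -0.17, which is 83.3% against 50.2% of all genes. By limma 0 of the 24 passed in any comparison. At an unadjusted p under 0.05 there was 1, higher in siTfam against NC, where the background over all genes is 3.04%. That gene was Ndufa12, a small subunit, with ratios of 0.34 and 0.08 under siDhx30 and of 0.70 and 0.61 under siTfam, a siTfam mean of 0.66 (SE 0.21, n = 2; limma adjusted p = 0.776). Ndufab1, the mitochondrial acyl carrier protein, had ratios of -0.65 and -0.37 under siDhx30 and of -0.42 and -0.40 under siTfam. It was below NC in all 4 libraries and had the smallest unadjusted p of the list in siDhx30 against NC (mean -0.51, SE 0.21, n = 2; limma adjusted p = 0.998). With trends removed the complex I medians were 0.02 in siDhx30 and 0.16 in siTfam, so the complex I median was above NC in siTfam with and without the trends.

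Of 18 measured assembly factors of complexes II to V outside the naming rule, 9 were positive in siDhx30, with a median of -0.03, and 11 in siTfam, with a median of 0.10. Set directly against siTfam, 15 of the 18 were lower in siDhx30, with a median difference of -0.08. That is 83.3% against 50.2% of all genes. By limma 0 of the 18 passed in any comparison. At an unadjusted p under 0.05 there was 1, Coa5, lower in siTfam against NC, where the background over all genes is 3.08%. Coa5, a complex IV assembly factor, stood at -0.47 and -0.50 under siDhx30 and at -0.67 and -0.63 under siTfam, and had the smallest unadjusted p of the list in both (siTfam mean -0.65, SE 0.18, limma adjusted p = 0.694). Coa4, of the same class, had ratios of -0.49 and -1.12 under siDhx30 and of -0.57 and -0.80 under siTfam. Fmc1, which acts in ATP synthase assembly, measured -0.25 and -0.79 under siDhx30, and 0.17 and 0.11 under siTfam, a difference of -0.65 (SE 0.24). Atpif1, the inhibitor of ATP synthase, stood at -0.48 and -0.45 under siDhx30 and at -0.27 and -0.12 under siTfam. All 4 libraries lay above NC for 3 of the 18 genes and below it for 3, 16.7% each, where the background over all genes is 20.1% above and 22.4% below.

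Transcription factors and coactivators of respiratory genes lay on both sides of NC. Of 14 measured, 9 were positive in siDhx30, with a median of 0.05, and 5 in siTfam, with a median of -0.06. By limma 0 of the 14 passed in any comparison, and 0 reached an unadjusted p under 0.05. Esrra, a nuclear receptor that drives respiratory genes, had ratios of 0.49 and 0.66 under siDhx30 and of 0.48 and 0.16 under siTfam. Tfb2m, a partner of Tfam at mitochondrial promoters, measured -0.14 and -0.05 under siDhx30, and -0.38 and -0.41 under siTfam. Ppargc1b, a coactivator, stood at -0.02 and 0.56 under siDhx30 and at -0.15 and -0.74 under siTfam, a difference of 0.71 (SE 0.33, n = 2 each; limma adjusted p = 0.999). Its siDhx30 libraries were both above its siTfam libraries, by 0.12 between replicates 1 and by 1.30 between replicates 2. Esrra was above NC and Tfb2m below it in all 4 libraries.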

How the data were processed

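Of 5 RNA-seq libraries, the authors deposited 1 table of log2 ratios per gene, with 1 column for each siRNA library, per the file headers. Build GRCm38 and the tools HISAT2, featureCounts, DESeq2 (3.14) and bcl2fastq are listed in the submitters' processing notes. With counts, depth and strand use not given, no counting interval is printed. Signs were turned from their pattern of missing values. Genes complete in all 4 columns (12088) were fitted with limma 3.58.1 in R 4.3.3 (robust=TRUE, no trend, prior degrees of freedom 2.02, residual 2), with NC as a column of zeros, assumed to vary like the others. P-values were adjusted by Benjamini-Hochberg over all genes. The members and lists were chosen with earlier results of these data known. Every member is named, and from each list the gene of lowest unadjusted p in each comparison, with Coa4, second in its list, besides. Annotation was GENCODE M21. Pseudogene copies were found with blastn 2.17.0. Length and GC trends were quadratic, with an interaction, fitted on 9329 protein-coding genes. The limma fit was tested on simulated data with known changes. Python 3.11.15, numpy 2.4.6, pandas 2.3.3, scipy 1.17.1 and matplotlib 3.10.9 were used. Alternatives left out each siRNA library, kept incomplete genes, centred on the median gene, removed trends, used robust=FALSE, restricted the libraries or members, and blocked on the replicate number.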

Additional observations from a re-analysis of the deposited data

Results flagged for a closer look

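For 5 of the 44 genes both siDhx30 libraries lay below NC and both siTfam libraries above it, which is 11.4% of the 44 against 4.89% of all genes (591 of 12088). The siDhx30 minus siTfam difference was -0.32 for Uqcrq of complex III, -0.23 for Cox5b, -0.29 for Cox6a1 and -0.45 for Cox14 of complex IV, and -0.29 for Atp5l of complex V. The test of that difference in limma gave an adjusted p of 0.999 for each, so the siRNAs were not shown to differ in any of them. The share of all genes counts such a split in either direction. Both ratios of a gene share the 1 NC library, and its own error was not measured.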

How the results depend on the processing

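No gene passed the limma threshold in any comparison or alternative (27 counts, all 0). Of 125 medians recomputed, 48 equal the main value, as where the library left out is of the other siRNA. Of the other 77, 54 stayed within the replicate spread and 23 moved, and 7 changed sign. That spread is the standard deviation of the library medians, the same libraries that are left out. Staying within it is therefore partly set in advance and is no measure of robustness. With length and GC trends removed, siDhx30 against NC gave 0.040 for complex V. SiTfam against NC then gave 0.079 over the 44 genes, 0.047 for complex II, 0.15 for III, 0.097 for IV and -0.013 for V, and siDhx30 against siTfam gave -0.019 over the 44, -0.023 for IV and 0.038 for V. With annotated subunits alone, complex IV was 0.15 in siDhx30 and 0.29 in siTfam against NC, and -0.22 in siDhx30 against siTfam. Leaving out 1 library at a time, siDhx30 against NC ran from 0.0020 to 0.075 over the 44, 0.075 to 0.22 for II, -0.029 to 0.22 for III, -0.030 to 0.070 for IV and 0.050 to 0.080 for V. SiTfam against NC ran from 0.15 to 0.20 over the 44, 0.030 to 0.092 for II, 0.21 to 0.36 for III, 0.19 to 0.23 for IV and 0.14 to 0.19 for V. SiDhx30 against siTfam ran from -0.14 to -0.043 over the 44, -0.078 to 0.13 for II, -0.35 to -0.098 for III, -0.19 to -0.024 for IV and -0.14 to -0.029 for V. The cause of these changes was not tested. Where 1 library was left, it was assumed to vary like the others. Deviations of same-numbered libraries had a Pearson correlation of 0.25 over all genes and 0.42 over the 44. They went the same way for 30 of the 44, and for 7634 of all 12088 genes. With 2 pairs, however, the numbers were not taken as a pairing. The replicate block gave 0 genes and a median of -0.09. The 2 libraries per siRNA, the single NC library and the unknown depth limit every value.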
